A study of Mus musculus with 9 samples.

Results

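The 42 genes described here encode proteins of the cytosolic ribosome or carry a ribosomal protein gene symbol, and they were taken from 18797 genes measured in mouse bone marrow cells carrying different forms of GATA2. A gene was taken if a probe cluster on the array carried 1 symbol only and that symbol was Rpl or Rps followed by a number, or Rplp0, Rplp1, Rplp2 or Rpsa. Pseudogenes named with -ps and the Rps6k kinases were left out, and the brightest cluster stood for a symbol with several. A cluster is a set of probes summed to 1 value per gene or locus. The choice used names and mean brightness only, not differences between groups.

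The cytosolic ribosome is built from a small and a large subunit, each made of ribosomal RNA and a set of proteins with the Rps and Rpl names. Ribosomal protein mRNAs are among the most abundant in growing cells, and their translation is controlled together through a pyrimidine-rich start that the mTOR pathway and Larp1 act on. Blood formation is sensitive to their dose: loss of a single copy of several of them causes Diamond-Blackfan anemia, a failure of red cell production.

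The study compared 3 groups of 3 arrays each. Per the labels, marrow was taken from C57BL/6 females aged 8 weeks, 6 days after a dose of 150 mg/kg 5-fluorouracil, and its Lin-, Sca+ and Kit+ cells were infected with retroviral particles that also carry green fluorescent protein. The virus was the empty vector MIE, GATA2 wild type or GATA2 R396Q, and fluorescent cells were sorted after 72 h of culture. All groups therefore share the drug treatment, the infection and the sort, the cells keep their own Gata2 gene, and the labels call them hematopoietic stem cells from blood. RNA was read in bulk, so less RNA per cell and fewer cells of a type cannot be told apart. Values are log2 signals, in which a difference of 1 is a doubling, and levels of different genes are not compared because probes differ in brightness.

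Gata2 read 9.87, 9.67 and 9.65 with empty vector, 11.50, 11.24 and 10.94 with wild type, and 10.65, 10.72 and 10.53 with R396Q, so the groups did not overlap. The median signal per array ran from 6.06 to 6.19 and the lower quartile from 4.54 to 4.60. Marker genes of blood cell types differed in level between groups: the mean of 7 measured erythroid marker genes was 5.38 to 5.78 with empty vector, 8.82 to 10.01 with wild type and 5.44 to 5.90 with R396Q, and that of 7 neutrophil marker genes was 11.4 to 14.6, 7.39 to 9.85 and 10.1 to 13.6. The mean of 7 stem and progenitor markers was 9.56 to 9.78, 8.39 to 8.45 and 9.54 to 9.99. That mean joins genes with opposite differences from empty vector, 1 positive and 6 negative with wild type and 2 and 5 with R396Q. Kit differed by -2.81 and -1.81, and Slamf1 by 3.58 and 3.25. For 6 monocyte and macrophage markers the mean was 7.93 to 8.95, 6.56 to 6.96 and 6.44 to 6.89. These 6 also differed from empty vector in opposite directions. With wild type 2 were positive and 4 negative (-4.62 to 0.37), and with R396Q 1 and 5 (-4.75 to 1.36). For 6 mast cell and basophil markers the mean was 10.34 to 11.88, 13.49 to 14.75 and 11.94 to 12.49. None of the 7 erythroid or 7 neutrophil markers lay below the lower quartile on every array. The part of these differences in the ribosomal protein values was not tested.

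Of the 42 genes, 23 had large subunit names and 19 small subunit names. Among them were 33 of 77 core ribosomal proteins, 18 of the large and 15 of the small subunit. Another 6 were paralogues with their own genes, namely Rpl3l, Rpl7l1, Rpl10l, Rpl22l1, Rpl39l and Rps27l. The other 3 were Rps3a2 and Rps3a3, which are copies of Rps3a1, and Rps19bp1, which encodes a protein that binds Rps19 and is not itself part of the ribosome. Another 37 core names appeared only in clusters shared with another symbol, such as Rpl3, Rpl5, Rps2, Rps3 and Rps6, and the rest of the core names are not analysed here. Copies of ribosomal protein genes are very alike, and probes for Rps3a1, Rps3a2 and Rps3a3 may read each other's RNA, so their separate values are uncertain.

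The members were mostly bright. On every array 22 of 42 lay above the 95th percentile of that array's clusters and 14 above its 99th percentile, while 2 paralogues, Rpl3l and Rpl10l, lay below the lower quartile on every array. The within-group SD had a median of 0.096 over the 42 members, from 0.030 to 0.742, and a median of 0.138 over all 21072 clusters.

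The pyrimidine-rich start is shown for the members that hold it at the annotated start base, since it is the element through which these mRNAs are known to be controlled. Promoter sequence from RefSeq on GRCm38.p6 was at hand for 35 of the 42 genes. A C at the annotated start base followed by at least 4 further C or T bases was found on the gene's strand in 4 of 35 members (11.4%) and in 3.01% of 27025 genes. The 4 are printed 5′ to 3′ with 40 bases before the start and 25 from it, and capitals mark the unbroken pyrimidine run from the annotated start base onward. Pyrimidines just before that base stay in lower case. Rpl35 lies at chr2:39005107-39005171 on the minus strand, Rpl38 at chr11:114668540-114668604 on the plus strand, Rps10 at chr17:27635220-27635284 on the minus strand and Rps18 at chr17:33955641-33955705 on the minus strand. Each window spans the end of the promoter and the first transcribed bases.
Rpl35: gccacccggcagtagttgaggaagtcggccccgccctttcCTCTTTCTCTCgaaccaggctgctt
Rpl38: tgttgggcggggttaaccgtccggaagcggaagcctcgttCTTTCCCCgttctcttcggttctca
Rps10: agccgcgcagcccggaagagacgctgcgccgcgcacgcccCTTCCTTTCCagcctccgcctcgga
Rps18: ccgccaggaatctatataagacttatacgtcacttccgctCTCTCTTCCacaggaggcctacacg

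The same windows are given for the 3 members whose differences between groups are described first, none of which has the tract at the annotated base. Rps9 lies at chr7:3704001-3704065 on the plus strand, Rps19bp1 at chr15:80264282-80264346 on the minus strand and Rpl7l1 at chr17:46782632-46782696 on the minus strand.
Rps9: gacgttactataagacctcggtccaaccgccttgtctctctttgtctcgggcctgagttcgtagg
Rps19bp1: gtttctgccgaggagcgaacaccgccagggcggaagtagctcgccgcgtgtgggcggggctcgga
Rpl7l1: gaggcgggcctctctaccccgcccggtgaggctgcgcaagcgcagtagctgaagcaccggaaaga
Annotated starts can lie a few bases from the true start, and a window without a match says only that these letters are not at that base. In the full promoter window of 250 bases before the start and 50 after, searched on both strands, the GATA motif AGATAA was found for 3 of 35 members (8.57%), namely Rpl19, Rpl3l and Rps4x, and for 12.7% of all genes. The ETS motif CCGGAAG was found for 16 of 35 members (45.7%), among them Rpl11, Rpl38, Rps10 and Rps26, and for 9.93% of all genes. The motifs can overlap, since CCGGAAG ends in the AG with which AGATAA begins.

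With GATA2 wild type against empty vector, 0 of 42 ribosomal protein genes passed limma at an adjusted p of 0.05, where 8.99% of all clusters did. The members' median difference was 0.03 on the log2 scale, against -0.01 over all clusters. Of the 42, 26 had a positive and 16 a negative difference, from -0.80 for Rps19bp1 to 0.27 for Rpl22l1, and 39 lay within 1.25-fold. By subunit, 14 of 18 core large subunit genes and 6 of 15 core small subunit genes had positive differences, with medians of 0.04 and -0.01. Without the second empty vector array the differences of Rpl7a, Rpl8, Rpl12, Rpl19 and Rpl27 turned from positive to negative. Those of Rps7 and Rpsa did so as well. The difference between the subunits was not tested. The sign of the members' differences depended on scaling: after quantile normalization 13 were positive and 29 negative, with a median of -0.04. Quantile normalization gives every array the same distribution, so it can remove a shift shared by many of the brightest clusters. As 14 members lay above the 99th percentile on every array, values after it cannot show whether such a shift was present. This holds for each comparison below. At an unadjusted p of 0.05, 6 members passed in limma, where 22.1% of all clusters did.

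With R396Q against empty vector, again 0 of 42 members passed the adjusted threshold in limma, where 1.23% of all clusters did, and 9 had an unadjusted p under 0.05, where 12.1% of clusters did. The median was 0.09, with 34 positive and 8 negative differences from -0.57 for Rps19bp1 to 0.49 for Rpl31, and 40 members within 1.25-fold. After quantile normalization 22 were positive and 20 negative, with a median of 0.00. Core large subunit genes had a median of 0.10 and core small subunit genes 0.03.

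With R396Q against wild type, 0 of 42 members passed in limma, where 5.75% of all clusters did, and 2 had an unadjusted p under 0.05, where 17.7% of clusters did. The median was 0.08 and 35 of 42 differences were positive, from -0.18 for Rpl39l to 0.42 for Rpl7l1, with 41 members within 1.25-fold. The median was 0.04 with 29 positive differences after quantile normalization and 0.14 with 41 after subtraction of each array's median. The test of any difference among the 3 groups also passed 0 members, where 8.31% of clusters passed, and 5 members had an unadjusted p under 0.05, where 21.3% of clusters did. The 3 comparisons share arrays pairwise, so they are not independent of each other.

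A failed test does not show that levels were the same, and the intervals set the size of change in array signal that these arrays leave. Exact ties, described below, narrow some of them. Whether the signal of the brightest members follows their RNA was not tested. The 95% interval of the difference lay wholly within 1.5-fold either way for 37 of the 42 members (88.1%) between wild type and empty vector. It did so for 36 (85.7%) between R396Q and empty vector, and again for 36 (85.7%) between the GATA2 forms. Over all clusters these shares were 65.4%, 71.5% and 67.8%. The median interval reached 0.18 to each side for members and 0.25 for all clusters.

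**Figure D1:**
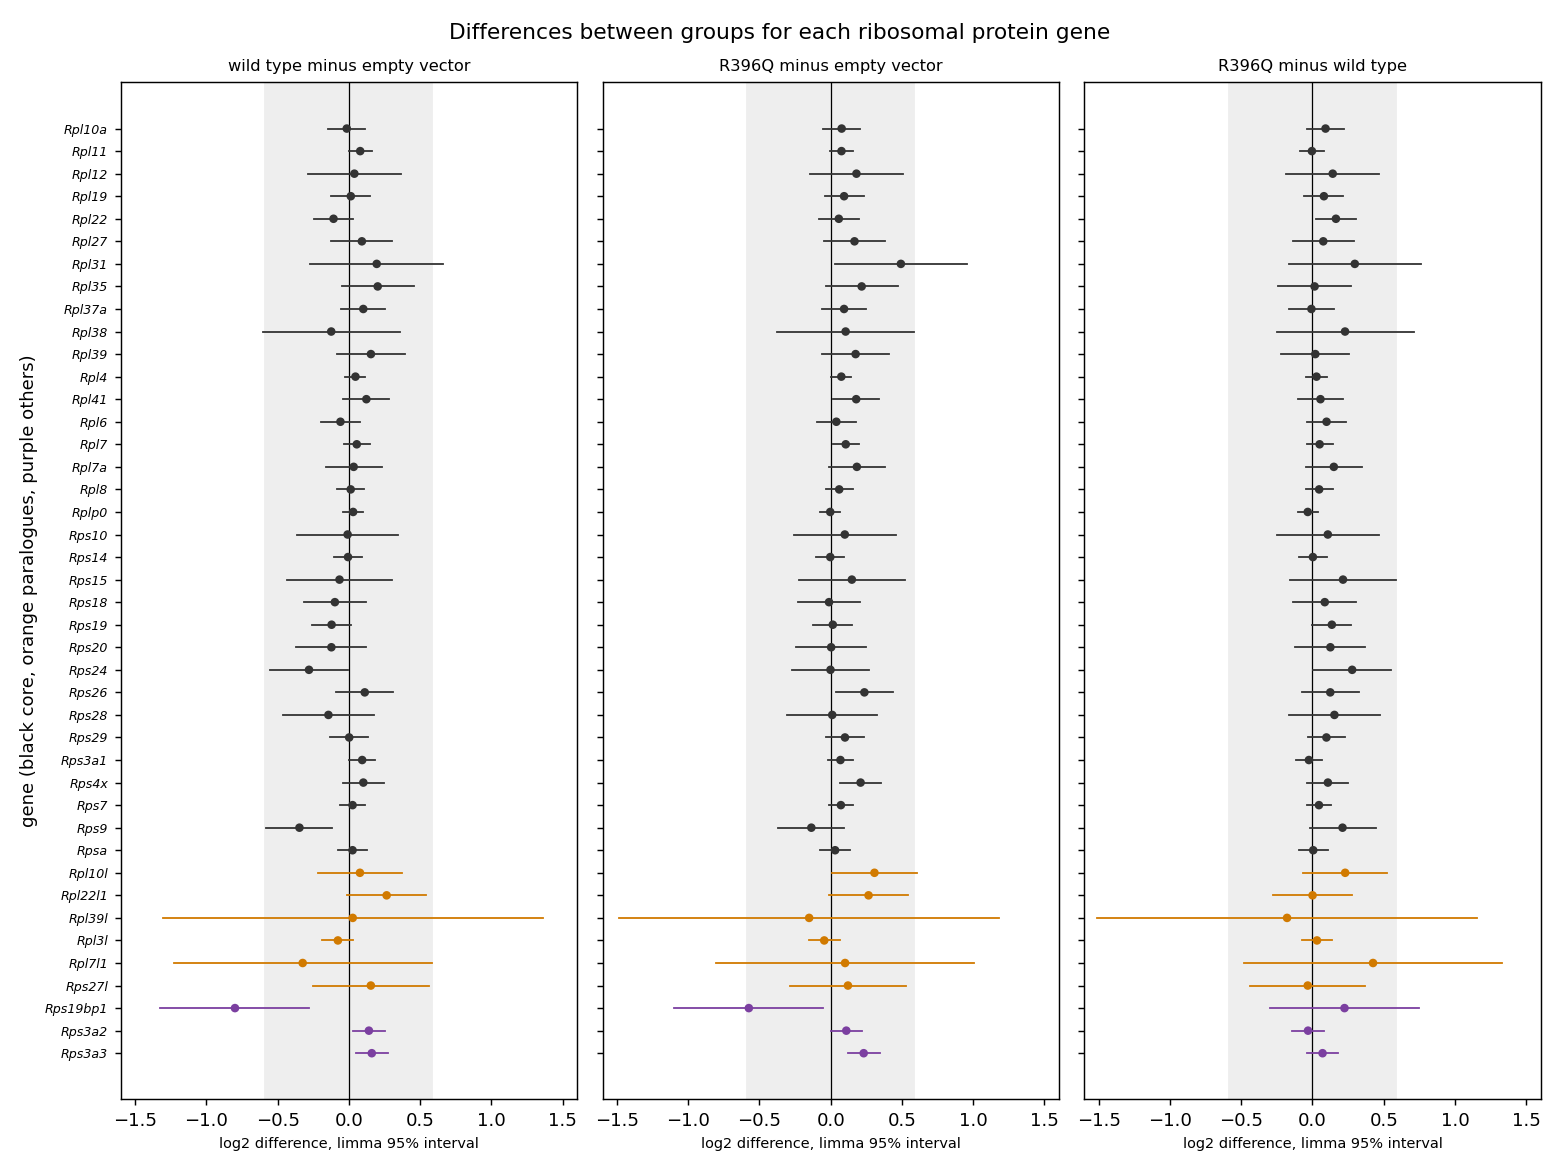
Differences of group means on the log2 scale for the 42 genes, with limma 95% intervals (n = 3 arrays per group) and a grey band at 1.5-fold either way. Most points lie close to 0 with narrow intervals, while Rps19bp1 lies at -0.80 with wild type and the intervals of Rpl39l and Rpl7l1 are wide.

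Same-numbered arrays moved together. The deviations of arrays from their group means correlated at 0.451 to 0.693 over all clusters for the 9 pairs with the same number and at -0.537 to -0.0900 for pairs with different numbers, and over the 42 members at 0.630 to 0.921 and -0.723 to -0.0611. The 3 deviations of a group sum to 0, so positive values for same numbers force negative ones for different numbers. The negative values are therefore not a separate result. What arrays with 1 number share is not stated in the labels. With the replicate number as a block in limma, 3 members were lower with wild type than with empty vector, namely Rps9, Rps19bp1 and Rpl7l1, where 17.4% of all clusters were called and 9.41% were lower. With the block 0 members were called for R396Q against empty vector (3.00% of clusters), 1, Rpl7l1, was higher with R396Q than with wild type (13.1% of clusters called and 7.10% higher), and 4 passed the test of any difference (17.1% of clusters). Unadjusted, the block gave 9, 12 and 8 members with p under 0.05 in the 3 comparisons, where 30.8%, 19.8% and 26.6% of clusters had one.

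Rps9, a small subunit protein, read 11.26, 11.30 and 11.29 with empty vector, 10.77, 10.94 and 11.10 with wild type, and 11.03, 11.10 and 11.31 with R396Q. All 3 wild type arrays were below all 3 empty vector arrays, and the R396Q arrays overlapped both groups. The difference of wild type from empty vector was -0.35 ± 0.10 (SE, n = 3 per group), 1.27-fold, with a 95% interval of -0.58 to -0.11 and a limma adjusted p of 0.0814. With the replicate block the limma adjusted p was 0.0258. R396Q differed from empty vector by -0.14 (limma adjusted p = 0.654).

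Rps19bp1, the Rps19 binding protein gene, read 10.07, 9.31 and 9.77 with empty vector, 8.98, 8.61 and 9.16 with wild type, and 9.27, 8.96 and 9.20 with R396Q. Every array with either form of GATA2 was below every empty vector array. This was the widest difference among the members with wild type, at -0.80 ± 0.22 (SE), 1.74-fold, with an interval of -1.32 to -0.28, a limma adjusted p of 0.0761, and 0.0116 with the block. With R396Q it was -0.57 (limma adjusted p = 0.366, and 0.0776 with the block). Rps19 itself, the small subunit protein most often affected in Diamond-Blackfan anemia, differed by -0.12 with wild type and 0.02 with R396Q (limma adjusted p = 0.284 and 0.971).

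Rpl7l1, a paralogue of Rpl7 that acts in the assembly of the large subunit, read 12.34, 11.97 and 12.98 with empty vector, 11.87, 11.78 and 12.67 with wild type, and 12.34, 12.15 and 13.11 with R396Q. Within each group the array numbered 3 was highest and the array numbered 2 lowest, and within each number the wild type array was lowest. The difference of wild type from empty vector was -0.32 ± 0.38 (SE; limma adjusted p = 0.683) and with the block -0.32 ± 0.05 (SE; limma adjusted p = 0.0181). It was -0.55 without the second empty vector array and with no block. R396Q stood 0.42 above wild type, with limma adjusted p = 0.671 and 0.0109 with the block. Its partner Rpl7 read 10.32 to 10.53 on all 9 arrays.

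**Figure D2:**
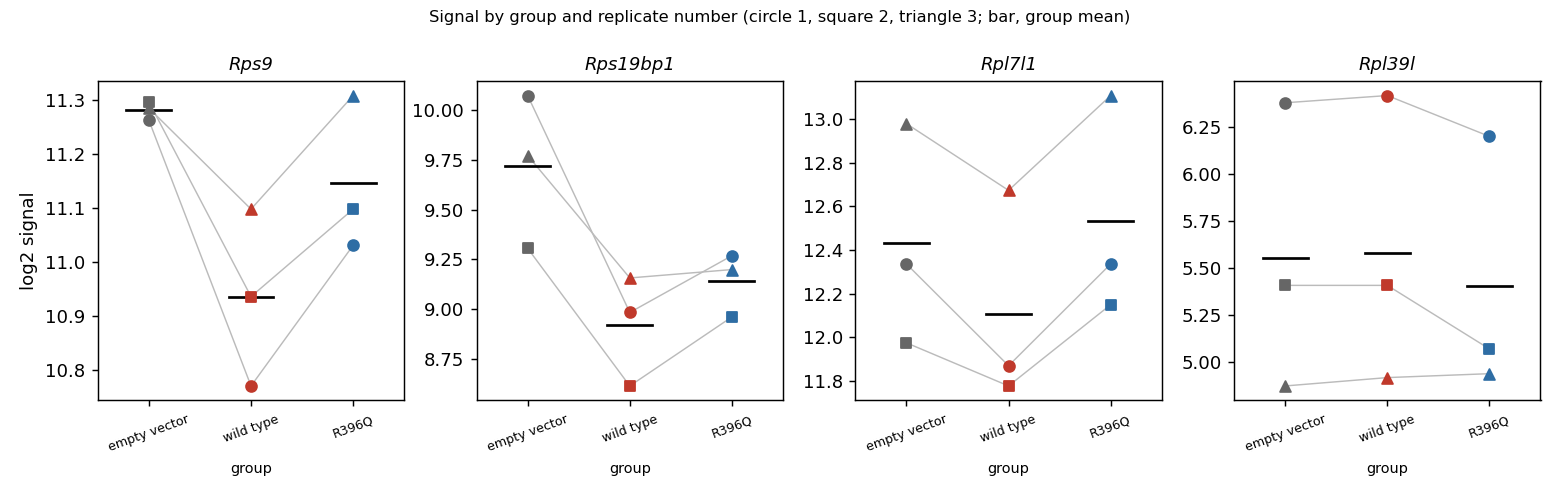
Log2 signal of Rps9, Rps19bp1, Rpl7l1 and Rpl39l by group, with circle, square and triangle for replicate numbers 1, 2 and 3, grey lines joining arrays of 1 number and bars for group means; each panel has its own axis, which does not start at 0. Rps9 is lower on all 3 wild type arrays, and Rpl39l is ordered by number, with means of 6.33, 5.29 and 4.91.

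Rpl39l, a paralogue of the large subunit gene Rpl39, varied with the replicate number and little with the group. It read 6.38, 5.41 and 4.87 with empty vector, 6.42, 5.41 and 4.92 with wild type, and 6.20, 5.07 and 4.94 with R396Q. The means of the 3 replicate numbers spanned 1.42, the widest span by number among the members, and the means of the 3 groups spanned 0.18. The next widest span by number was 0.95, for Rpl7l1. Over all 42 members, 17 (40.5%) spanned more between numbers than between groups, and over all clusters 43.0% did.

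Rps3a3 was the member nearest to the threshold in the test of any difference (limma adjusted p = 0.0538, and 0.0425 with the block). It read 17.39, 17.29 and 17.30 with empty vector, 17.49 on all 3 wild type arrays, and 17.61, 17.60 and 17.47 with R396Q. All arrays with GATA2 were above all empty vector arrays, by 0.16 ± 0.05 with wild type and 0.23 ± 0.05 with R396Q (SE; limma adjusted p = 0.0892 and 0.0840). After quantile normalization these differences were -0.01 and 0.03. Its parent gene Rps3a1, which encodes the small subunit protein eS1, differed by 0.09 and 0.07, and Rps3a2 by 0.14 and 0.11, which after quantile normalization became -0.06 and -0.14 for Rps3a1 and 0.02 and -0.10 for Rps3a2. Against wild type, R396Q differed by 0.07 for Rps3a3, -0.03 for Rps3a1 and -0.03 for Rps3a2.

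Rpl31, a large subunit protein at the tunnel through which new proteins leave, had the highest difference between R396Q and empty vector. It read 8.75, 8.56 and 8.25 with empty vector, 8.77, 8.84 and 8.54 with wild type, and 9.12, 9.29 and 8.64 with R396Q. The third R396Q array lay inside the empty vector range, so these groups overlapped. The difference was 0.49 ± 0.20 (SE), 1.41-fold, with an interval of 0.03 to 0.96 and a limma adjusted p of 0.387 (0.0713 with the block). Across all 3 groups Rpl31 had a limma adjusted p of 0.344, and 0.0499 with the block.

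Rps24, a small subunit protein, read 12.39, 12.26 and 12.47 with empty vector, 11.90, 12.08 and 12.30 with wild type, and 12.30, 12.29 and 12.52 with R396Q. Wild type differed by -0.28 from empty vector and R396Q by 0.28 from wild type (limma adjusted p = 0.214 and 0.271, and 0.0507 and 0.0616 with the block). The third wild type array overlapped both other groups.

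Rpl22l1 and Rpl22, a paralogue pair that can take the same place in the large subunit, were not ordered alike. Rpl22l1 read 14.64, 14.15 and 14.47 with empty vector, 14.62, 14.74 and 14.69 with wild type, and 14.65, 14.67 and 14.74 with R396Q. Its difference from empty vector was 0.27 with each form of GATA2 (limma adjusted p = 0.244 for wild type and 0.435 for R396Q), and 0.13 with each form without the second empty vector array, the lowest of the 9. Rpl22 read 9.22, 9.10 and 9.11 with empty vector, 8.96, 9.04 and 9.10 with wild type, and 9.22, 9.28 and 9.11 with R396Q. R396Q stood above wild type for Rpl22 by 0.16 without overlap (limma adjusted p = 0.199), and for Rpl22l1 it stood 0.00 from wild type. The difference between the paralogues was not tested.

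The other paralogues gave small or uncertain differences. Rpl10l, a germ cell counterpart of Rpl10, read 3.83 to 4.38 on the 9 arrays, and R396Q differed from empty vector by 0.31 (limma adjusted p = 0.397), at a signal below the lower quartile of every array. Rpl3l, the heart and muscle counterpart of Rpl3, read 4.43 on 7 of 9 arrays. Rps27l, a p53 target, differed from empty vector by 0.15 with wild type and 0.12 with R396Q (limma adjusted p = 0.660 and 0.849), and by -0.05 and -0.08 without the second empty vector array. Rpl39, the core partner of Rpl39l, differed by 0.16 and 0.18, and by 0.04 and 0.06 without that array. The core partners Rpl3 and Rpl10 had only clusters shared with other symbols and are not set beside their paralogues.

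The second empty vector array stood apart for the ribosomal protein genes. It was the lowest of the 9 arrays for 22 of 42 members and the highest for 0. Over clusters with a single lowest array it was the lowest for 15.2%, and the first wild type array was for 16.5%. Over clusters with a single highest array the second empty vector array was the highest for 10.4%. On this second empty vector array the members lay at a median of -0.11 from their 9-array means, and on the other 8 arrays at -0.02 to 0.05. Its 99th percentile of signal was 15.53, against 15.71 to 15.94 on the other arrays. Without it the median differences were -0.02 for wild type and 0.04 for R396Q against empty vector, in place of 0.03 and 0.09. The sign of the first median thus depended on this array, and the second was smaller without it. The R396Q arrays were lowest for 0 of 42 members, where each was lowest for 8.91% to 10.4% of clusters with a single lowest array.

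**Figure D3:**
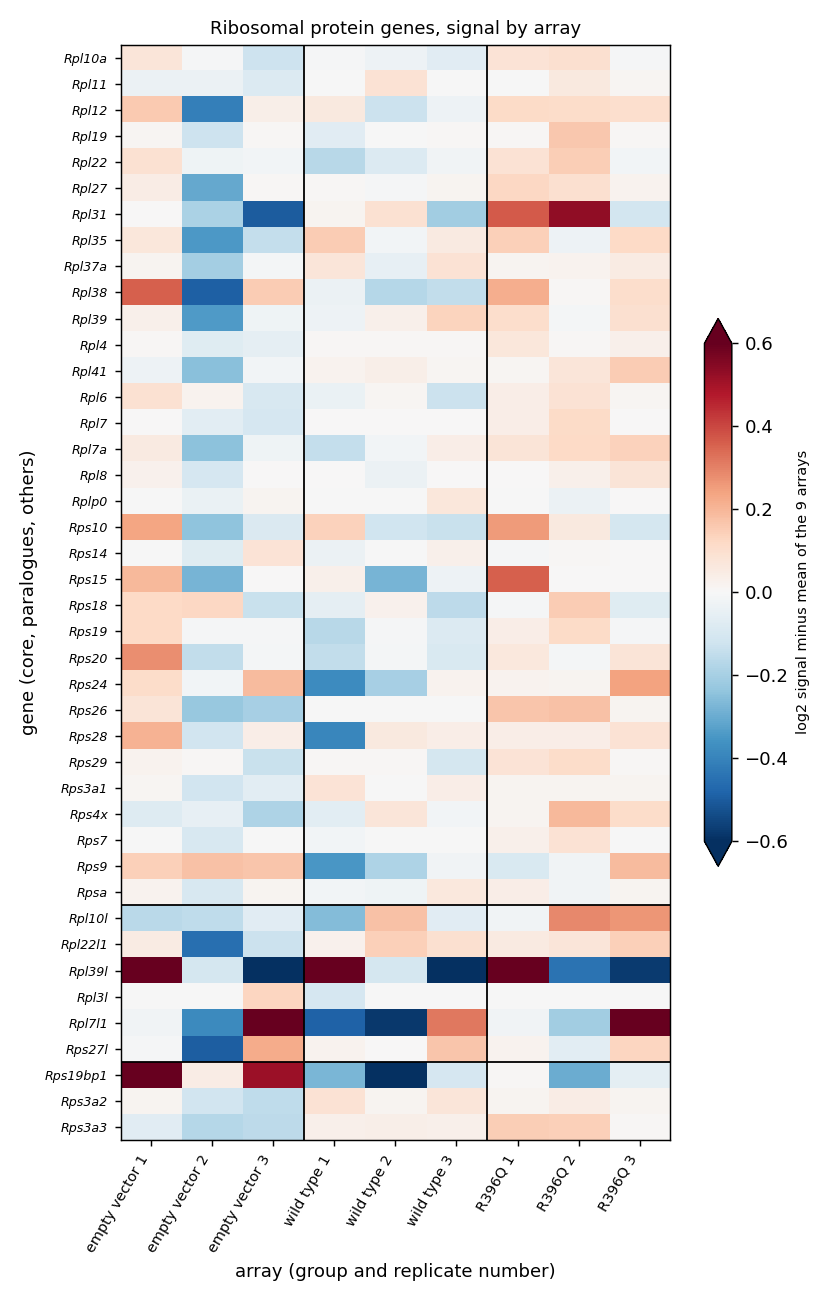
Log2 signal of each of the 42 genes minus its mean over the 9 arrays (red above, blue below; values beyond 0.6 either way share the end colour), with lines between the 3 groups and between core genes, paralogues and other members. The second empty vector array is the lowest of the 9 for 22 genes, and Rpl39l and Rpl7l1 differ by replicate number in all groups.

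Groups that do not overlap were no more frequent among the members than over all clusters in 2 comparisons. Wild type and empty vector did not overlap for 5 members (11.9%), where 22.6% of clusters did not. Rpl11, Rpl41 and Rps3a3 were higher with wild type (10.8% of clusters were), and Rps9 and Rps19bp1 lower (11.8% were). R396Q and wild type did not overlap for 7 members, all higher with R396Q (16.7%), where 20.6% of clusters did not overlap and 11.0% were higher. These were Rpl7a, Rpl12, Rpl22, Rpl27, Rpl38, Rps26 and Rps29, with differences of 0.08 for Rpl27 to 0.23 for Rpl38. R396Q and empty vector did not overlap for 9 members (21.4%), where 14.1% of clusters did not. Of these 9, 8 were higher with R396Q, namely Rpl7a, Rpl10l, Rpl11, Rpl22l1, Rpl41, Rps3a1, Rps3a3 and Rps4x, where 6.98% of clusters were higher, and Rps19bp1 was lower, where 7.10% were.

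Rps4x, an X-linked small subunit protein, shows the size of these shifts. It read 16.19, 16.22 and 16.09 with empty vector, 16.21, 16.34 and 16.25 with wild type, and 16.29, 16.46 and 16.38 with R396Q. R396Q was 0.21 ± 0.06 (SE) above empty vector, 1.16-fold, with a limma adjusted p of 0.211, and 0.04 above after quantile normalization. Rps26, a small subunit protein near the mRNA exit, read 16.67, 16.37 and 16.40, then 16.59 on all 3 wild type arrays, then 16.76, 16.77 and 16.61. Its difference between R396Q and empty vector was 0.24 ± 0.09 (SE; limma adjusted p = 0.325), and 0.05 after quantile normalization. Rpl35, at the tunnel exit of the large subunit, read 17.36, 16.95 and 17.15, then 17.44, 17.28 and 17.35, then 17.44, 17.27 and 17.41, with differences of 0.20 and 0.22 from empty vector (limma adjusted p = 0.333 and 0.489), and 0.04 and 0.00 after quantile normalization. Without the second empty vector array, the lowest of the 9, they were 0.10 and 0.12. These groups overlapped for Rpl35 in each comparison.

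Of 19 genes listed for Diamond-Blackfan anemia, 11 were measured: Rps7, Rps10, Rps19, Rps24, Rps26, Rps28, Rps29, Rpl11, Rpl27, Rpl31 and Rpl35. None of the 11 passed limma in any comparison. An unadjusted p under 0.05 was held by 1 with wild type and 2 with R396Q against empty vector, and by 1 between the GATA2 forms. Over all clusters 22.1%, 12.1% and 17.7% held one. With the block the count stayed at 0 in each. Their medians were 0.03, 0.10 and 0.11. Rpl11, which binds Mdm2 when ribosome assembly is disturbed, read 7.72, 7.72 and 7.68 with empty vector, 7.76, 7.85 and 7.76 with wild type, and 7.76, 7.82 and 7.77 with R396Q. All arrays with GATA2 were above all empty vector arrays for Rpl11, by 0.08 for each form (limma adjusted p = 0.236 and 0.450).

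The P stalk recruits elongation factors to the large subunit, and 2 of its 4 genes had clusters of their own. Rplp0 differed by 0.03 between wild type and empty vector and by -0.03 between R396Q and wild type. Rpl12 read 15.92 on the second empty vector array and 16.20 to 16.49 on the others. Neither passed limma in any comparison, and 0 of the pair had an unadjusted p under 0.05.

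Tied values were common, as arrays of different groups held exactly the same number. Only 18 of 42 members (42.9%) had 9 distinct values, against 32.9% of all clusters, and 22 (52.4%) held a value found in more than 1 group, against 60.4%. Fewer than 6 distinct values were held by 4 members (9.52%), against 20.9% of clusters: Rpl3l, Rpl4, Rpl7 and Rps7. Rpl3l held 3 distinct values, with 4.43 on 7 arrays. Rpl4 held 17.64 on 5 arrays, Rpl7 held 10.42 on 5 and Rps7 held 14.74 on 5. Exact ties narrow the within-group spread that the test divides by. Without the clusters that had fewer than 6 distinct values, 38 members remained and 1, Rps19bp1, was called lower with wild type (limma adjusted p = 0.0456).

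In 5 members, Rpl7a, Rpl27, Rpl35, Rpl41 and Rps26, a second and dimmer cluster carried the same symbol. For Rpl41 the bright cluster differed by 0.12 between wild type and empty vector and the dim one by -0.05, and for Rpl7a by 0.03 and -0.05. Without the second empty vector array the bright clusters differed by 0.05 and -0.05. The difference between clusters of a symbol was not tested. The other 3 had differences of 1 sign in both clusters in all comparisons. None of the 5 dimmer clusters changed the count of calls.

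The 47 clusters that join a ribosomal protein symbol to another symbol hold most of the core genes left out above. Their medians were 0.01, 0.08 and 0.09 in the 3 comparisons, beside 0.03, 0.09 and 0.08 for the members. With wild type 1 of 47 rose, the cluster of Rps2 and its pseudogene Rps2-ps13, where 8.99% of all clusters were called. With the block 1 rose and 1 fell (17.4% of clusters were called). In either comparison of R396Q 0 passed in limma, where 1.23% and 5.75% of clusters did, and 0 under the block. At an unadjusted p of 0.05, 2 passed against empty vector and 6 against wild type, where 12.1% and 17.7% of clusters did. The Rps2 cluster read 15.32, 15.05 and 15.39 with empty vector, 15.63, 15.80 and 15.77 with wild type, and 15.63, 15.77 and 15.87 with R396Q. The rise with wild type was 0.48 ± 0.11 (SE), 1.40-fold, with a limma adjusted p of 0.0350. The RNA of gene and pseudogene cannot be told apart in it.

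Ribosome biogenesis factors process ribosomal RNA and assemble the subunits. Of 75 listed ribosome biogenesis factors 71 were measured, and 7 (9.86%) fell and 0 rose with wild type, where 8.99% of all clusters were called, with a median of -0.32 and 70 of 71 negative. With R396Q against empty vector 0 passed in limma (3 at an unadjusted p of 0.05, and 0 under the block), and the median was -0.10. Against wild type 5 (7.04%) rose with R396Q and 0 fell, where 5.75% of all clusters were called, with a median of 0.24. With the block 35 (49.3%) fell with wild type, where 9.41% of clusters did. With R396Q against wild type the block called 22 higher and 1 lower (32.4%, where 13.1% of clusters were called). The difference between this list and the ribosomal protein genes was not tested.

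Rrp1b, a nucleolar factor of ribosome assembly, read 9.21, 9.42 and 8.99 with empty vector, 8.12, 8.44 and 8.08 with wild type, and 8.92, 8.996 and 8.87 with R396Q. It fell by 1.00 on the log2 scale with wild type (limma adjusted p = 0.00566). Tcof1, which supports transcription of ribosomal RNA genes, fell by 0.88 (limma adjusted p = 0.00780), Mdn1, a large ATPase that remodels the large subunit, fell by 0.97 (limma adjusted p = 0.0167) and Nolc1, a nucleolar chaperone of small RNA-protein particles, fell by 0.69 (limma adjusted p = 0.0269, and 0.0573 without the second empty vector array). Of the same genes, R396Q stood 0.72 above wild type for Rrp1b, 0.78 for Tcof1 and 0.89 for Mdn1 (limma adjusted p = 0.0256, 0.0158 and 0.0309).

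RNA polymerase I transcribes ribosomal RNA, and 10 of 14 listed genes of it and its factors were measured. Taf1b, a subunit of its selectivity factor, and Polr1a, its largest subunit, fell with wild type by 0.50 and 0.64 (limma adjusted p = 0.0199 and 0.0342). These were 2 of the 10 (20%), where 8.99% of all clusters were called. Polr1a did not pass without the second empty vector array (limma adjusted p = 0.0800). With the block Polr1b fell as well, 3 of the 10 in all (30%, where 9.41% of clusters fell). Taf1b was 0.68 higher with R396Q than with wild type (limma adjusted p = 0.00847), 1 of the 10 (10%), where 5.75% of all clusters were called. With R396Q against empty vector 0 of the 10 passed in limma, where 1.23% of all clusters did (1 at an unadjusted p of 0.05, and 0 under the block). Of 18 measured genes of growth control, 2 rose with wild type, Mxd1 and Larp1b, and 2 fell, Myc and Larp1 (22.2%, and 8.99% of all clusters). With the block 6 rose, with Mycn, Tsc2, Rps6kb2 and Eif4ebp2 added, and the same 2 fell (44.4%, and 17.4% of clusters). Between R396Q and wild type limma called 1 higher with R396Q, Myc, and 1 lower, Larp1b (11.1%, and 5.75% of all clusters). With the block 2 were higher and 3 lower with R396Q (27.8%, and 13.1% of clusters). Without the second empty vector array 0 rose with wild type against empty vector and 1, Myc, fell. Limma adjusted p was then 0.0527 for Mxd1, 0.0653 for Larp1b and 0.100 for Larp1. Myc, a driver of ribosome synthesis, read 12.88, 12.83 and 12.55 with empty vector, 11.66, 11.33 and 11.41 with wild type, and 13.15, 12.55 and 12.56 with R396Q. It fell by 1.29 with wild type, 2.45-fold (limma adjusted p = 0.00733), and was 1.29 higher with R396Q than with wild type (limma adjusted p = 0.0101). Mxd1, which antagonizes Myc, was 1.27 higher with wild type than with empty vector (limma adjusted p = 0.0336). Larp1, which binds pyrimidine-rich starts, fell by 0.41, and its relative Larp1b was 0.76 higher (limma adjusted p = 0.0394 and 0.0257). Larp1b also fell by 0.71 in R396Q against wild type (limma adjusted p = 0.0443, and 0.0737 without that array), and 0 of the 18 passed in limma with R396Q against empty vector (1 at an unadjusted p of 0.05, and 1, Mxd1, higher under the block).

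Of 39 measured translation factors, 2 (5.13%) fell with wild type, where 8.99% of all clusters were called: Eef1e1, of the tRNA synthetase complex, by 0.62 and Gspt1, a release factor, by 0.19 (limma adjusted p = 0.0274 and 0.0365, and 0.0244 and 0.0816 without the second empty vector array). In limma 0 passed in either comparison of R396Q, with 1 against empty vector and 8 against wild type at an unadjusted p of 0.05. With the block 10 fell with wild type (25.6%, and 9.41% of clusters), 0 passed with R396Q against empty vector and 5 were higher with R396Q than with wild type (12.8%, and 7.10% of clusters). Other genes whose mRNAs begin with a pyrimidine tract were measured for 16 of 17. Of these 16, only Tpt1 passed in limma, 0.17 higher with wild type (limma adjusted p = 0.0156), where 8.99% of all clusters were called. The medians of the 16 were -0.06, 0.06 and 0.09. With the block 1 rose and 1 fell with wild type (17.4% of clusters were called). Under it 1 was higher with R396Q than with wild type (13.1% of clusters were called). Among ribosomal proteins with other names only Fau was measured, and it passed in no comparison.

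Mitochondrial ribosomal proteins serve a separate ribosome, and 75 of their genes were measured. With wild type 4 (5.33%) fell, where 8.99% of all clusters were called, Mrpl19 by 0.71, Mrpl12 by 0.46, Mrpl36 by 0.35 and Mrps5 by 0.24, and 0 rose, with a median of -0.20 beside 0.03 for the cytosolic genes. The median with R396Q against empty vector was -0.07. Without the second empty vector array the medians against empty vector were -0.33 with wild type and -0.18 with R396Q, and 13 fell with wild type. With the block 12 fell and 1 rose (17.3%, and 17.4% of clusters), while Mrpl36 and Mrps5 no longer passed (limma adjusted p = 0.0515 and 0.0638). None of the 75 passed in limma in either comparison of R396Q, where 2 and 11 passed at an unadjusted p of 0.05. With the block 1 fell with R396Q against empty vector (1.33%, and 3.00% of clusters). Under it 3 were higher and 2 lower with R396Q than with wild type (6.67%, and 13.1% of clusters).

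**Figure D4:**
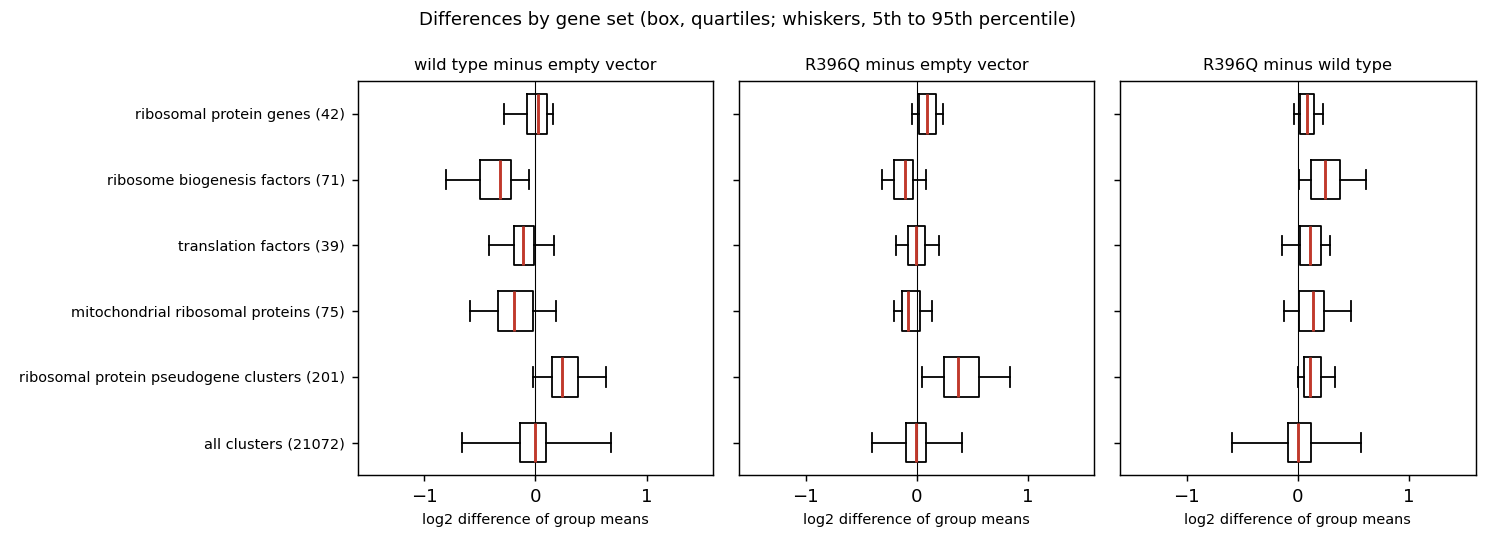
Log2 differences of group means in 6 sets, with boxes at the quartiles, red lines at the medians, whiskers at the 5th and 95th percentiles and the number of genes or clusters in parentheses. The 42 ribosomal protein genes lie close to 0 with medians of 0.03, 0.09 and 0.08, while ribosome biogenesis factors lie at -0.32 with wild type against empty vector and at 0.24 with R396Q against wild type.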

How the data were processed

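The authors deposited 1 log2 value per transcript cluster and array. Per the submitters' processing notes these were made in Affymetrix Expression Console by robust multiarray average (RMA), which normalizes between arrays and sums a cluster's probes. The genome build and the versions of these tools are not given in the sources used here. Cluster identifiers are of a later type than the Mouse Exon 1.0 ST array of the labels. All 9 columns were used as deposited, ties included, and 0 were left out.

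Symbols came from the array annotation, where 18992 of 21072 clusters had 1 symbol, 1390 several and 690 none. Gene identifiers of 18236 clusters matched a RefSeq gene table (GRCm38.p6), which updated 418 symbols, and 40 of the 42 members matched. Members and lists were chosen with earlier results of these data known.

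Groups were compared with limma 3.58.1 (R 4.3.3) over all 9 arrays (6 residual and 0.956 prior degrees of freedom), 2-sided, with Benjamini-Hochberg adjustment over 21072 clusters and a threshold of 0.05. Tables were made with pandas 2.3.3 in Python 3.11.15. Called means past that threshold. The procedure was also run on simulated data with independent arrays, no ties and added differences larger than those of the members. That run cannot show how it performs with the ties, the same-numbered arrays and the small differences seen here. Members were named if called, if among the 4 highest or lowest differences of a comparison, if paralogues with their partners, if in the anemia or P stalk lists, or if most tied. Of other lists up to 4 called genes were named. Further genes, such as Rps4x, Rpl7a and Rps3a1, were named after their values were seen, for groups that do not overlap.

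Pairs of same-numbered arrays all correlated above 0.1 after group means were removed, so the replicate block is given where it changes a call. The pairing comes from the data, as the labels state no shared source. The labels do not say if a group's samples are of separate mice or cultures, so each p reflects spread among these samples alone, which may be technical, and 3 arrays per group limit the precision.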

Additional observations from a re-analysis of the deposited data

How the results depend on the processing

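For wild type against empty vector, the count of 0 called ribosomal protein genes became 3 with the replicate block (Rps9, Rps19bp1 and Rpl7l1). It became 1 under median subtraction, quantile normalization, leaving out the dimmest 30% of clusters and requiring at least 6 distinct values, in each case Rps19bp1 (limma adjusted p = 0.0359, 0.0303, 0.0493 and 0.0456). It was 1, the Rps2 cluster, when shared clusters were added. Leaving out 1 array at a time gave 0 to 1: Rps3a2 without empty vector 1 (limma adjusted p = 0.0267), Rps19bp1 without empty vector 2 (0.0317) and Rps3a3 without R396Q 3 (0.0439). The median was -0.0435 after quantile normalization and -0.0224 to 0.0569 with an array left out, lowest without empty vector 2. For R396Q against empty vector the count stayed at 0, and the median was 0.00315 after quantile normalization and 0.0377 to 0.126 with an array left out. For R396Q against wild type the count was 1 with the block (Rpl7l1) and 0 to 0 with an array left out, and the median was 0.137 after median subtraction, 0.0368 after quantile normalization and 0.0624 to 0.107 with an array left out. For any difference among the groups the count was 4 with the block (Rpl31, Rps3a3, Rps19bp1 and Rpl7l1), 1 under median subtraction (Rps3a3), 1 with shared clusters and 0 to 2 with an array left out (Rps26 and Rps3a2 without empty vector 1). The cause was not tested. The remaining settings, among them fits on only the groups compared, trend and robust options, array weights, 1 cluster or the mean per symbol, core members only and symbols not updated, moved no count beyond 1.5 times and no median by more than 0.0434, 1 SD of the members' medians over arrays. For wild type against empty vector the median was 0.00204 under median subtraction and 0.0146 with array weights, in place of 0.0271. Adding all clusters of member symbols, adding shared clusters and leaving out Rps19bp1 were chosen after seeing the data. Of 1296 settings over 69 results for 23 named ribosomal protein genes, none of them called as reported, so that no call could be lost, 1248 kept the value, 37 moved it, 11 brought it past the threshold and 0 reversed a call.

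For ribosome biogenesis factors with wild type, 12 fell under median subtraction, 14 under quantile normalization and 8 without empty vector 2, in place of 7, and for R396Q against wild type 8, 2 and 5 rose in place of 5. For mitochondrial ribosomal proteins with wild type 6, 7 and 13 fell in place of 4. Without empty vector 2 the calls of Larp1, Larp1b, Mxd1, Nolc1, Dkc1, Polr1a and Gspt1 with wild type were lost.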

Other observations

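The 201 clusters named for a single ribosomal protein pseudogene were left out of the members. Their median difference was 0.24 with wild type and 0.37 with R396Q against empty vector, and 0.11 between R396Q and wild type. In limma 29 (14.4%) rose with wild type and 16 (7.96%) with R396Q against empty vector, where 8.99% and 1.23% of all clusters were called, and 0 fell, while 0 passed between R396Q and wild type (12 at an unadjusted p of 0.05, and 0 with the block). All 3 arrays were above all empty vector arrays for 113 of them with wild type and for 156 with R396Q, where 10.8% and 6.98% of all clusters were. These clusters lay at medians of -0.06, -0.42 and -0.16 from their 9-array means on the empty vector arrays, 0.02, 0.09 and 0.03 with wild type, and 0.15, 0.20 and 0.13 with R396Q. Without the second empty vector array the medians against empty vector were 0.16 and 0.27, with 14 and 10 rises, and after quantile normalization they were 0.14 and 0.22. After median subtraction 26 rose with wild type, 34 with R396Q against empty vector and 1 with R396Q against wild type, and with the block 36 rose and 1 fell with wild type and 15 rose with R396Q against empty vector. The 410 other clusters named with -ps had medians of 0.01 in all 3 comparisons. Their median signal per array was 4.77 to 4.87, near the lower quartile of 4.54 to 4.60, and that of the 201 was 14.5 to 15.3. At such unlike signals the 410 are not a like comparison for the 201. Probes for a pseudogene and its parent gene can read the same RNA, and the part of the parent genes in these values was not tested.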
